A study of Mus musculus with 9 samples.

Results

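Potassium channels and voltage-gated calcium channels were followed across 9 expression arrays of mouse aorta. The genes were chosen by symbol, as those that start with Kcn or Cacn and have at least 1 probe set paired with that gene alone, which gave 108 of 18193 genes. Each gene is represented by its main probe set, the one with the highest mean over the 9 arrays. Of the 108 genes, 21 had a mean above 5 on the deposited log2 scale and are described in full, and 87 lay below.

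The tissue came from male mice labelled BMAL-/- (4 arrays, F02, F03, F05 and F08) or BMAL+/+ (5 arrays, F01, F04, F07, F09 and F10), all of a strain that was only in part backcrossed to C57Bl/6J. All mice had at least 2 weeks of 12 h light and 12 h dark, then at least 30 h of constant darkness, and were killed at ZT14 after perfusion with saline. BMAL1, the protein of Arntl, is a transcription factor of the circadian clock. Age, and which part of Arntl is missing, are not given in the sources used here. The labels name both the thoracic aorta and a dissection from the arch to beyond the femoral branches, so that surrounding tissue can be part of a sample.

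On 2 arrays the clock genes read like those of the other genotype label. Arntl, the targeted gene, read 5.87, 6.22 and 6.05 on F02, F03 and F08 but 2.77 on the array labelled BMAL-/- F05, against 2.74 to 2.82 on F01, F07, F09 and F10 and 6.67 on the array labelled BMAL+/+ F04. Arntl was thus higher on 3 arrays labelled BMAL-/-, the reverse of a lost transcript. Since the deleted part is not known here, a probe set outside it would not check the labels. Npas2, a clock partner of BMAL1, read 8.08, 7.90 and 8.52 on F02, F03 and F08 and 3.40 on F05, against 8.36 on F04 and 3.37 to 3.40 on F01, F07, F09 and F10. The repressor gene Nr1d2 read 5.08, 5.89 and 5.48 on F02, F03 and F08 and 11.21 on F05, against 5.81 on F04 and 10.39 to 11.69 on the other BMAL+/+ arrays. For all 3 genes F05 thus lay with the other BMAL+/+ arrays and F04 with the other BMAL-/- arrays. The array F01 is labelled BMAL+/+ in its title and strain and BMAL-/- in its source name. Every direction below rests on the labels, and differences are stated both with all 9 arrays and with the 7 that remain when F04 and F05 are left out. The series calls the arrays biological replicates.

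Potassium channels let potassium leave a cell and so make its membrane potential more negative, which keeps voltage-gated calcium channels shut. In the smooth muscle of arteries this balance sets tone, since calcium that enters through the L-type channel starts contraction. The large-conductance calcium-activated channel, the ATP-sensitive channel, the voltage-gated Kv channels and the two-pore-domain channels are the main brakes, and the endothelium has small- and intermediate-conductance channels of its own. Other members of both families serve nerve, heart and skeletal muscle.

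The DNA element that BMAL1 binds, the E-box, was looked for in promoter windows, because the comparison is between mice with and without BMAL1. RefSeq windows (GRCm38.p6, 250 bases before to 50 after a gene's start) were held for 17 of the 21 genes, as 23 windows. The E-box CACGTG, which reads the same on both strands, was in 4 of these windows (17.4%), of 3 genes, Kcne4, Kcnab1 and Kcnn4. It was in 6 of the 115 windows of all members (5.22%) and in 7.15% of the 32851 windows of all genes. The CArG box, the element of smooth muscle genes, was in 0 of the 115 windows and in 1.63% of all windows. These matches describe letters in a window and are not binding sites. The windows below show the 3 genes with an E-box, its letters in capitals, and that of Kcnmb1, the gene with the most negative difference in both comparisons, which holds none. They lie on the forward strand at chr1:78816661-78816960 (Kcne4), chr3:65187853-65188152 (1 of the 3 windows of Kcnab1), chr7:24370013-24370312 (Kcnn4) and chr11:33962763-33963062 (Kcnmb1).
Kcne4: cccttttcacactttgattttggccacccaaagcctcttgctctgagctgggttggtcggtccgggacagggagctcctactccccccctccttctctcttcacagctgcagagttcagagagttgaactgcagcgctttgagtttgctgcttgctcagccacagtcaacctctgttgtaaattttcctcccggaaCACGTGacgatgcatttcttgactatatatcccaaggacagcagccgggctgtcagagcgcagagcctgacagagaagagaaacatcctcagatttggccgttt
Kcnab1: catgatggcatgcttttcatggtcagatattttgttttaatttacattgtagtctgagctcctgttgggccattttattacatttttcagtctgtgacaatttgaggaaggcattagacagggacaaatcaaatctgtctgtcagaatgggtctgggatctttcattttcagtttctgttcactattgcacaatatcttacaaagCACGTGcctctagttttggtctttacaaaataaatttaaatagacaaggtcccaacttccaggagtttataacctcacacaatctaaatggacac
Kcnn4: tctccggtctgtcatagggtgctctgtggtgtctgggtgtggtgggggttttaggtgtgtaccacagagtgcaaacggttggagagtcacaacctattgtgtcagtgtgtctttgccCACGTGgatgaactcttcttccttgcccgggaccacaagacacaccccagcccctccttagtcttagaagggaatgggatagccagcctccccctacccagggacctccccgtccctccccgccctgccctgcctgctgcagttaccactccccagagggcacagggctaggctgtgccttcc
Kcnmb1: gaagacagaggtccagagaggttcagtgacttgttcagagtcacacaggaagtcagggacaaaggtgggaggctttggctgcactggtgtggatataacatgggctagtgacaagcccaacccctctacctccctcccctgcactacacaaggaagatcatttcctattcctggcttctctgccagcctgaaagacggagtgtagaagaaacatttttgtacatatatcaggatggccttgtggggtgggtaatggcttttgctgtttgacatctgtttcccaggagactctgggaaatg
The E-box begins 54 bases before the start in Kcne4, 45 in this window of Kcnab1 and 133 in Kcnn4. The levels of these genes are given with their channel types below.

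Values are the deposited log2 expression values, and differences are BMAL-/- minus BMAL+/+ on that scale with limma's standard error (SE). The p-values are two-sided, with Benjamini-Hochberg adjustment across 45037 probe sets and a threshold of 0.05. Levels of different probe sets are not set against each other. In 9 arrays, none of the 21 genes passed in limma, where 0% of all probe sets did, and their adjusted p lay between 0.447 and 0.981. None of the 21 reached an unadjusted p under 0.05 either, where 2.12% of the probe sets above 5 did (0.769% higher and 1.35% lower), and the F-test of the one-way design gave 0 by both measures. The groups of all 21 overlapped, where 0.184% of the probe sets above 5 had no overlap with BMAL-/- higher and 0.238% with BMAL-/- lower. In 7 arrays none passed either (0.00888% of all probe sets did). An unadjusted p under 0.05 was reached by 2 of 21 (9.52%), Kcnma1 and Cacna2d1, both lower in BMAL-/-, where 15.6% of the probe sets above 5 reached it, 6.75% higher and 8.86% lower. This count of 2 was 0 without F02, F03, F01 or F07. The median difference of the 21 genes was -0.05 in 9 arrays and -0.17 in 7, beside -0.02 and -0.03 over all probe sets above 5.

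**Figure D1:**
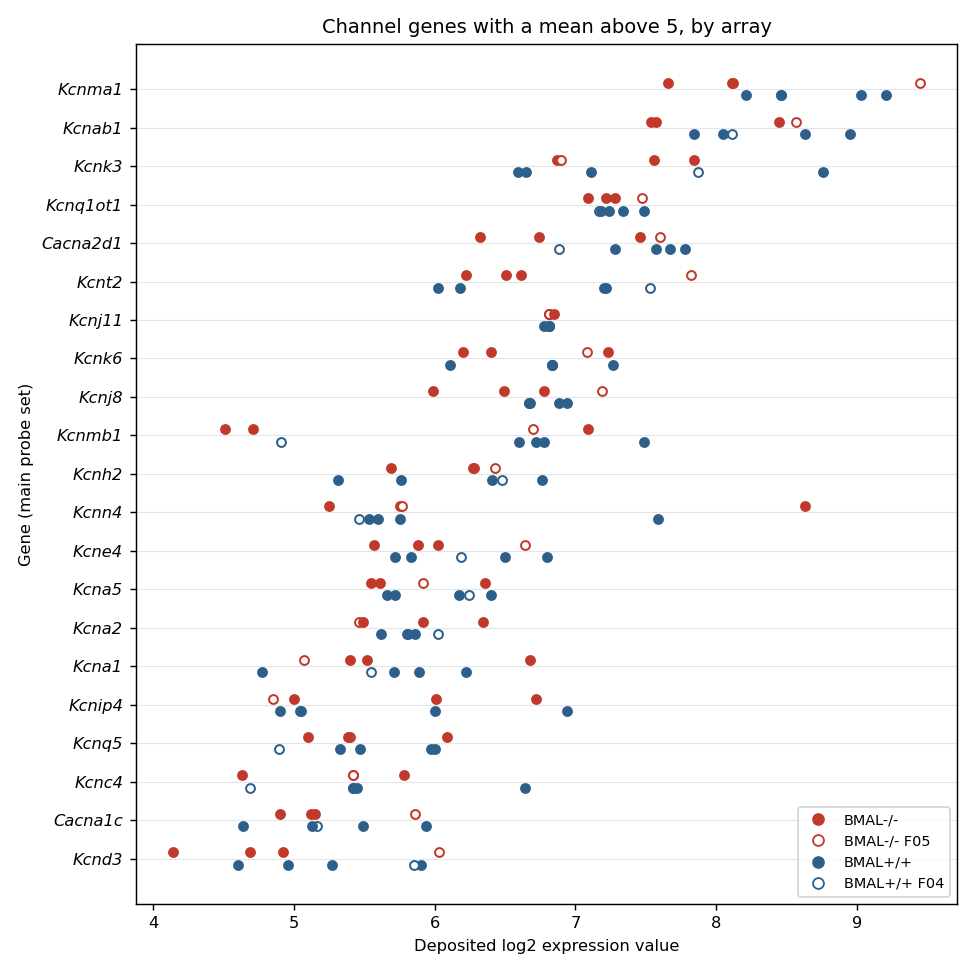
Deposited log2 expression values (x axis) of the main probe sets of the 21 channel genes with a mean above 5, 1 row per gene, 1 point per array, with BMAL-/- arrays in the upper line of each row and BMAL+/+ arrays in the lower one. The groups overlap in all 21 rows, and open points mark F05 and F04. Levels of different rows are not comparable.

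The large-conductance channel held the 2 most negative differences of the 21 genes in 7 arrays, and neither passed. Kcnma1 encodes its pore, which opens with voltage and calcium, and Kcnmb1 encodes the beta1 subunit of smooth muscle, which raises its calcium sensitivity. Kcnma1 read 8.11, 7.66, 9.45 and 8.12 on the BMAL-/- arrays F02, F03, F05 and F08, against 9.21, 8.46, 9.03, 8.21 and 8.46 on the BMAL+/+ arrays F01, F04, F07, F09 and F10. The array labelled BMAL-/- F05 was the highest of all 9, and the other BMAL-/- arrays were below every BMAL+/+ array. The difference was -0.34 ± 0.37 (SE, adjusted p = 0.607) in 9 arrays and -0.76 ± 0.29 (SE, adjusted p = 0.208) in 7. Leaving out single arrays moved the 9-array value between -0.71 (without F05) and -0.11 (without F03). In 7 arrays Kcnma1 was the 1 gene of the 21 whose groups did not overlap, lower in BMAL-/-, where 6.31% of the probe sets above 5 did so in that direction and 6.04% in the other. Its 4 other probe sets had means between 2.43 and 3.90. Their differences differed in sign, from -0.44 to 0.52 in 9 arrays and from -0.88 to 0.18 in 7.

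Kcnmb1 split the arrays otherwise than the genotype labels did. It read 4.51, 4.71, 6.70 and 7.09 on the BMAL-/- arrays F02, F03, F05 and F08, against 6.72, 4.91, 7.49, 6.60 and 6.78 on the BMAL+/+ arrays F01, F04, F07, F09 and F10. Low values thus stood on F02, F03 and F04, and the other 6 arrays read 6.60 or more. These low arrays and F08 are those on which Npas2 was high and Nr1d2 low, and F08 read 7.09 for Kcnmb1. The part of clock gene state in this split was not tested. Group levels were 5.75 ± 1.33 (SD, n = 4) for BMAL-/- arrays against 6.50 ± 0.95 (SD, n = 5) for BMAL+/+ arrays. The difference was -0.75 ± 0.68 (SE, adjusted p = 0.534). Over 7 arrays it was -1.46 ± 0.64 (SE, adjusted p = 0.208), and it went to -2.29 ± 0.28 (SE, adjusted p = 0.00752) without F08, a fit in which 36.5% of all probe sets passed. The 9-array difference was -0.34 without F02, -0.40 without F03, -1.15 without F04 and -1.19 without F08. The second probe set, with a mean of 3.78, did not show the same split: it read 3.72 on F02, 3.23 on F03 and 3.69 on F04, against 3.64 on F09 and 3.61 on F10.

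The same 3 arrays had the lowest mean levels of the smooth muscle, fibroblast and macrophage marker lists, though not of each marker. The mean of the 8 smooth muscle markers, all of them measured, was 9.62 on F02, 9.53 on F03, 10.76 on F05 and 10.61 on F08 in BMAL-/-, against 10.07 on F04 and 10.47 to 10.98 on the other BMAL+/+ arrays. Of the 8, 7 were lower in BMAL-/-, with a median difference of -0.51 in 9 arrays and -0.83 in 7, and none passed. Acta2, the actin of smooth muscle, varied between 13.99 and 14.37, and Tagln, transgelin, between 11.24 and 13.81. Myocd, a coactivator of smooth muscle genes, had its lowest value on F09, at 7.92, and read 9.28 on F04. The mean of 5 fibroblast markers was 8.43, 7.89, 9.81 and 9.50 on BMAL-/- F02, F03, F05 and F08, against 8.68 on F04 and 9.43 to 10.08 on the other BMAL+/+ arrays. Of these 5, 2 were higher and 3 lower in BMAL-/-, and Col1a1, a collagen, and Pdgfra, a receptor, were highest of all on F04, at 10.87 and 9.73. The mean of 5 macrophage markers was 6.33, 5.66, 7.36 and 6.60 on BMAL-/- F02, F03, F05 and F08, against 6.34 on F04 and 6.90 to 8.58 on F01, F07, F09 and F10. Each of the 5 was lower in BMAL-/-, and in 7 arrays the list means did not overlap, but none passed. In 7 arrays 4 of the 5 had an unadjusted limma p under 0.05. So had 3 of 8 smooth muscle, 3 of 5 fibroblast and 4 of 7 endothelial markers, and at most 1 marker in any other list. The 4 endothelial markers differed in direction. Pecam1 (-1.94), Tie1 (-0.97) and Esam (-0.47) were lower in BMAL-/-, and Kdr (0.98) was higher. Of all probe sets above 5, 8.86% were lower and 6.75% higher at that p, and 6.31% had no overlap with BMAL-/- lower. Fewer smooth muscle cells and less RNA per cell cannot be told apart in whole tissue, and the part of these markers in the levels of Kcnmb1 and Kcnma1 was not tested.

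**Figure D2:**
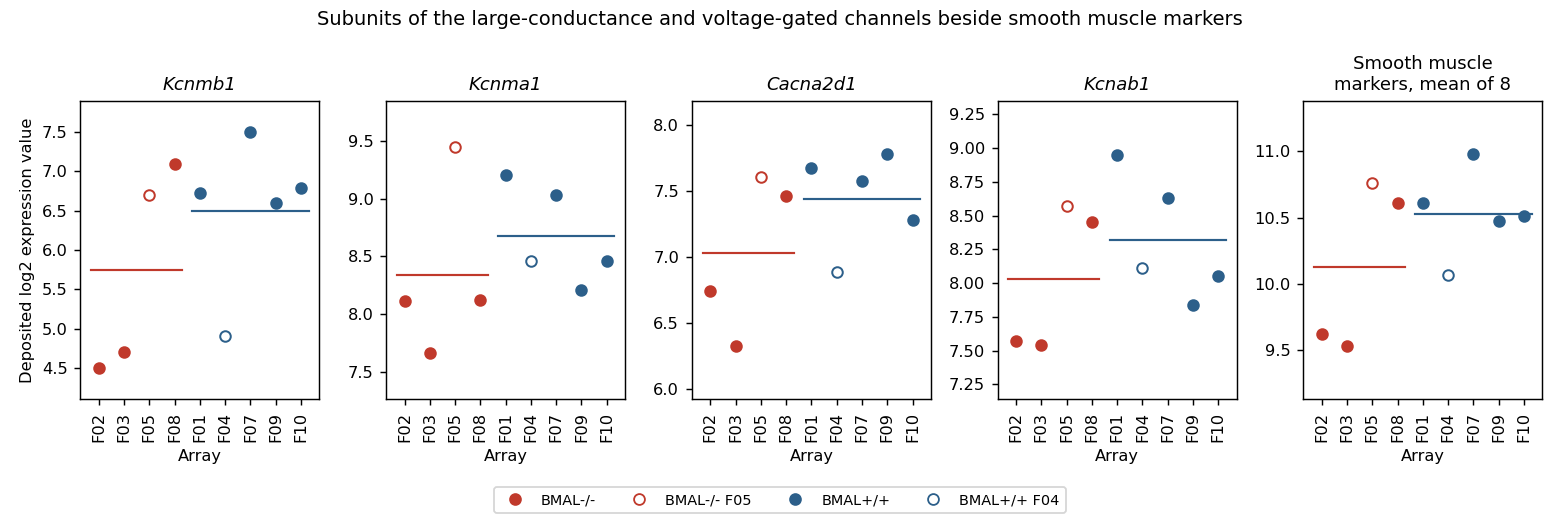
Deposited log2 expression values of Kcnmb1, Kcnma1, Cacna2d1 and Kcnab1 and the mean of 8 smooth muscle markers on each array, with BMAL-/- arrays left of BMAL+/+ arrays, lines at group means, open points for F05 and F04, and a y axis of its own in each panel. Kcnmb1 is at 4.51 to 4.91 on F02, F03 and F04 and at 6.60 or more elsewhere, and the marker mean is at 9.53 to 10.07 on these 3 and at 10.47 or more elsewhere.

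The L-type calcium channel, the opposing arm, was represented by its pore and an accessory subunit. Cacna1c, the pore of cardiac and smooth muscle, read 5.15, 4.90, 5.86 and 5.12 on BMAL-/- F02, F03, F05 and F08, against 5.94, 5.16, 5.49, 4.64 and 5.13 on BMAL+/+ F01, F04, F07, F09 and F10. The groups overlapped nearly in full, at 5.26 ± 0.41 (SD, n = 4) and 5.27 ± 0.48 (SD, n = 5), and in 7 arrays at 5.06 ± 0.14 (SD, n = 3) and 5.30 ± 0.55 (SD, n = 4). Its second probe set had a mean of 4.11 and was likewise highest on F01, at 5.40, and F05, at 4.88.

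Cacna2d1, the alpha2delta subunit that brings the pore to the membrane, read 6.74, 6.32, 7.60 and 7.46 on BMAL-/- F02, F03, F05 and F08, against 7.67, 6.88, 7.57, 7.78 and 7.28 on BMAL+/+ F01, F04, F07, F09 and F10. On this main probe set F02, F03 and F04 were again the 3 lowest. The difference was -0.41 ± 0.30 (SE, adjusted p = 0.447), the smallest adjusted p of the 21 genes, and -0.73 ± 0.29 (SE, adjusted p = 0.208) in 7 arrays. Without F08 the 7-array difference was -1.04 ± 0.21 (SE, adjusted p = 0.0164), in the fit named above in which 36.5% of all probe sets passed, and without F03 the 9-array difference was -0.17. Its other probe sets above 5 had differences of -0.06 and -0.31 in 9 arrays and of -0.27 and -0.59 in 7. The first of them, with a mean of 6.97, had another order. It was lowest on F09, at 6.33, and read 7.04 on F04. The other, with a mean of 5.21, was lowest on F02, F03 and F04, at 4.40, 4.74 and 5.07. Of the beta subunits, Cacnb2 (mean 3.46), Cacnb1 (3.26) and Cacnb4 (3.84) lay below 5, and Cacnb3 was not analysed here.

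The ATP-sensitive channel couples metabolism to tone. Kcnj8, the Kir6.1 pore of vascular smooth muscle, read 6.49, 5.99, 7.19 and 6.78 on BMAL-/- F02, F03, F05 and F08, against 6.94, 6.67, 6.68, 6.88 and 6.67 on BMAL+/+ F01, F04, F07, F09 and F10. The BMAL+/+ arrays lay within a narrow band, which the BMAL-/- arrays overran on both sides. The difference was -0.16 ± 0.22 (SE, adjusted p = 0.691) in 9 arrays, 0.05 without F03 and -0.35 without F05, and -0.37 ± 0.21 (SE, adjusted p = 0.267) in 7. Kcnj11, the Kir6.2 pore, varied by only 0.07 over the 9 arrays around 6.81, and its second probe set had a mean of 2.34. A main probe set this flat gives no information on differences between arrays. Abcc9, the sulfonylurea receptor that pairs with Kir6.1, read 9.82, 9.92, 11.18 and 10.56 on BMAL-/- F02, F03, F05 and F08 and 10.31 to 11.29 on the BMAL+/+ arrays, a difference of -0.41 (adjusted p = 0.451) in 9 arrays and -0.71 (adjusted p = 0.208) in 7.

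Of the Kv pores, Kcna5 (Kv1.5) and Kcna2 (Kv1.2) are known from arterial muscle. Kcna5 read 5.55, 6.36, 5.92 and 5.61 on BMAL-/- F02, F03, F05 and F08, against 6.17, 6.24, 6.40, 5.72 and 5.66 on BMAL+/+ F01, F04, F07, F09 and F10, a difference of -0.18 ± 0.22 (SE, adjusted p = 0.64), and of -0.15 ± 0.28 (SE, adjusted p = 0.724) in 7 arrays. Both groups covered nearly the same range. Without single arrays the 9-array value lay between -0.35 (without F03) and -0.08 (without F02). Kcna2 read 5.92, 6.34, 5.46 and 5.49 on BMAL-/- F02, F03, F05 and F08 and only 5.62 to 6.02 on the BMAL+/+ arrays, with group means of 5.80 and 5.82.

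Kcnab1, the Kvbeta1 subunit that binds Kv1 pores, and Kcne4, a single-pass subunit that dampens Kv channels, followed a like order over the arrays. Kcnab1 read 7.57, 7.54, 8.57 and 8.45 on BMAL-/- F02, F03, F05 and F08, against 8.95, 8.11, 8.63, 7.84 and 8.05 on BMAL+/+ F01, F04, F07, F09 and F10. Kcne4 read 5.88, 5.57, 6.64 and 6.02 on BMAL-/- F02, F03, F05 and F08, against 6.80, 6.19, 6.50, 5.72 and 5.83 on BMAL+/+ F01, F04, F07, F09 and F10. F01, F05 and F07 were the 3 highest for both main probe sets, and F05 was the array labelled BMAL-/- among them. These 3 arrays were also the highest for the main probe sets of Kcnma1 and Cacna1c, which are not among the 3 genes with an E-box. The difference of Kcnab1 was -0.28 ± 0.31 (SE, adjusted p = 0.61), and -0.51 ± 0.36 (SE, adjusted p = 0.346) in 7 arrays. That of Kcne4 was -0.18 ± 0.28 (SE, adjusted p = 0.714), and -0.39 ± 0.30 (SE, adjusted p = 0.386) in 7 arrays. The second probe set of Kcnab1, with a mean of 4.42, had another order. It was highest on F08, at 5.79, and read 4.20 on F05, with differences of -0.81 in 9 arrays and -1.20 in 7. Single arrays moved the 9-array value of Kcnab1 between -0.46 (without F05) and -0.12 (without F03 or F01), and that of Kcne4 between -0.39 (without F05) and -0.03 (without F03). Both genes hold an E-box in the windows printed above, and neither difference passed. Kcnab1 holds one in 2 of its 3 windows.

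Kcnd3 (Kv4.3), a fast transient channel, and Kcnt2, a channel opened by sodium, were also highest on F05. Kcnd3 read 4.14, 4.69, 6.03 and 4.92 on BMAL-/- F02, F03, F05 and F08, against 5.90, 5.85, 5.27, 4.60 and 4.96 on BMAL+/+ F01, F04, F07, F09 and F10. Its difference was -0.37 ± 0.41 (SE, adjusted p = 0.605), and -0.60 ± 0.34 (SE, adjusted p = 0.266) in 7 arrays. It was -0.73 without F05 and -0.10 without F02 in 9 arrays. Kcnt2 read 6.61, 6.22, 7.82 and 6.51 on BMAL-/- F02, F03, F05 and F08, against 7.22, 7.53, 7.20, 6.02 and 6.18 on BMAL+/+ F01, F04, F07, F09 and F10. For both genes F09 and F10 were the lowest BMAL+/+ arrays, and the groups overlapped.

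Kcnh2, the pore of the rapid delayed rectifier of heart, which is also present in smooth muscle, read 6.28, 6.27, 6.43 and 5.69 on BMAL-/- F02, F03, F05 and F08 and 5.31 to 6.76 on BMAL+/+ arrays, with group means of 6.17 and 6.14. Kcnc4 (Kv3.4) read 5.42 to 5.45 on 5 arrays and stood away from that value on F01, at 6.64, F02, at 5.78, F08, at 4.63, and F04, at 4.69. Its difference of -0.21 ± 0.38 (SE, adjusted p = 0.753) was 0.07 without F01 and 0.01 without F08, and it was -0.46 ± 0.40 (SE, adjusted p = 0.449) in 7 arrays. The direction for Kcnc4 therefore rested on single arrays.

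The two-pore-domain channels carry background potassium current. Kcnk3 (TASK-1), which is closed by acid, read 6.87, 7.84, 6.90 and 7.56 on BMAL-/- F02, F03, F05 and F08, against 7.11, 7.87, 6.65, 8.76 and 6.59 on BMAL+/+ F01, F04, F07, F09 and F10. The spread within BMAL+/+, from 6.59 to 8.76, contained all BMAL-/- arrays. Kcnk6 (TWIK-2) read 7.23, 6.20, 7.08 and 6.40 on BMAL-/- F02, F03, F05 and F08 and 6.11 to 7.27 on the BMAL+/+ arrays, again with full overlap. Kcnk2 (TREK-1), a stretch-sensitive member, had a mean of 3.04.

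**Figure D3:**
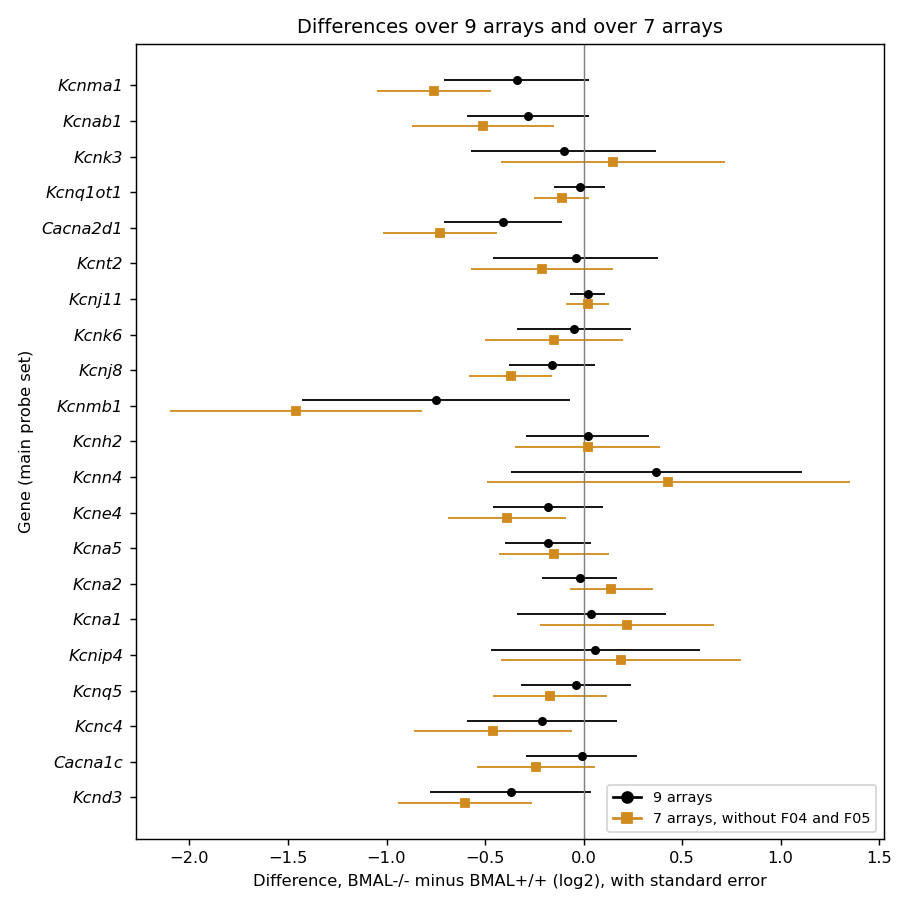
Differences, BMAL-/- minus BMAL+/+ on the log2 scale (x axis), of the main probe sets of the 21 channel genes, with limma's standard error as bars, for 9 arrays as labelled and for 7 arrays without F04 and F05. Kcnmb1 has the most negative value in both, -0.75 and -1.46, and no gene passed an adjusted p of 0.05.

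Several channels varied over the arrays together with markers of other cell types. Kcnn4, the intermediate-conductance channel of endothelium and of activated lymphocytes, read 8.63, 5.75, 5.77 and 5.25 on BMAL-/- F02, F03, F05 and F08, against 5.60, 5.46, 5.75, 5.53 and 7.59 on BMAL+/+ F01, F04, F07, F09 and F10. It was thus high on F02 and F10, 1 array of each genotype. The 4 measured lymphocyte markers of 5 listed averaged 6.09 on F02 and 3.23 to 3.51 on the other BMAL-/- arrays, against 6.34 on F10 and 3.33 to 3.68 on the other BMAL+/+ arrays. Cd79a, of B cells, read 4.57 on F02 and 7.28 on F10 and 2.45 to 2.52 on the other 7, and Cd3g, of T cells, read 6.02 on F02 and 4.89 on F10 and 2.58 to 2.65 on the other 7, near the floor. The mean of the 7 endothelial markers was 6.16 on F02 and 6.34 to 6.68 on the other BMAL-/- arrays, and 6.47 on F10 and 6.69 to 6.91 on the other BMAL+/+ arrays. The part of lymphocytes in the levels of Kcnn4 was not tested. The difference of Kcnn4 was 0.37 ± 0.74 (SE, adjusted p = 0.783) in 9 arrays, -0.39 without F02, and 0.43 ± 0.92 (SE, adjusted p = 0.762) in 7. Kcnab2, the Kvbeta2 subunit, with a mean of 3.88, was also highest on F10, at 4.68, and F02, at 4.56, with 4.26 on F03.

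Kcnip4 is a calcium sensor that binds Kv4 channels, Kcna1 the Kv1.1 pore of axons and Kcnq5 an M-type channel pore. Their main probe sets had high values on F03 and F09, the arrays richest in neuronal markers. Kcnip4 read 5.00, 6.72, 4.85 and 6.01 on BMAL-/- F02, F03, F05 and F08, against 6.00, 5.05, 4.90, 6.94 and 5.04 on BMAL+/+ F01, F04, F07, F09 and F10. Kcna1 read 5.40, 6.68, 5.07 and 5.52 on BMAL-/- F02, F03, F05 and F08, against 5.89, 5.55, 5.71, 6.22 and 4.77 on BMAL+/+ F01, F04, F07, F09 and F10. The 2 highest arrays were F03 and F09 for both main probe sets. Other probe sets of Kcna1 above 5, with means of 5.58 and 5.18, were also highest on F03, at 7.09 and 6.24. On them F09, at 5.74 and 5.40, lay below F07, at 5.77 and 5.44. Kcnq5 read 5.10, 6.09, 5.40 and 5.38 on BMAL-/- F02, F03, F05 and F08, against 6.00, 4.89, 5.47, 5.97 and 5.33 on BMAL+/+ F01, F04, F07, F09 and F10. F01 thus lay above F09 for Kcnq5. A second probe set of Kcnq5, with a mean of 5.45, had another order. It was lowest on F09, at 5.28, read 5.36 on F03, and was highest on F07, at 5.78, and F10, at 5.72. The mean of the 8 measured neuronal markers of 9 listed was 4.50, 6.55, 3.40 and 4.58 on BMAL-/- F02, F03, F05 and F08, against 4.94, 3.66, 5.46, 8.87 and 4.37 on BMAL+/+ F01, F04, F07, F09 and F10. Snap25, of nerve terminals, was at 2.84 on F05 and 2.73 on F04, near the floor, and at 8.33 on F03 and 9.50 on F09. The part of neuronal tissue in these channel levels was not tested.

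Channels below a mean of 5 followed such arrays too. Of the 87 genes below 5, 10 read above 5 on at least 1 array and 3 above 6, Kcnj3, Cacna1s and Kcnq3, which are named because they are so few and were chosen after their values were seen. Kcnq3, another M-type pore, read 6.25 on F09 and 5.22 on F03, and between 3.71 and 4.35 elsewhere. Cacna1b, the N-type pore of nerve terminals, read 5.44 on F09 and 4.78 on F03, and between 3.03 and 3.34 elsewhere, and Kcnmb4, the neuronal beta4 subunit, read 5.80 on F09 and between 3.84 and 4.33 elsewhere. Cacna1b and Kcnmb4 were likewise chosen after their values were seen. The high arrays for these 3 genes are those high in neuronal markers, whose part was not tested.

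Cacna1s, the L-type pore of skeletal muscle, read 4.83, 3.48, 2.76 and 6.27 on BMAL-/- F02, F03, F05 and F08, against 3.19, 3.22, 5.59, 4.15 and 5.03 on BMAL+/+ F01, F04, F07, F09 and F10. The 5 arrays above 4 were F08, F07, F10, F02 and F09, and the same 5 had the highest mean of the 10 skeletal muscle markers, between 9.43 and 10.78, against 8.35 on F03 and 4.02 to 7.33 on F05, F01 and F04. Cacng1, the gamma subunit of the same channel, read 2.20 to 2.29 on every array. Kcnj3, the GIRK1 pore of atrial muscle, read 3.56, 6.32, 5.25 and 3.38 on BMAL-/- F02, F03, F05 and F08, against 4.47, 3.48, 4.89, 4.88 and 3.82 on BMAL+/+ F01, F04, F07, F09 and F10. The mean of the 8 heart muscle markers was lowest on F02, F04 and F08, at 4.80, 5.41 and 5.97, which are the 3 lowest arrays for Kcnj3. It was 8.85 on F03 and 9.45 on F09. The part of skeletal and heart muscle in these levels was not tested. The remaining lists were not set beside a channel gene. Their means lay between 10.95 and 11.96 in BMAL-/- and 10.86 and 13.27 in BMAL+/+ for brown fat, between 10.05 and 10.87 in BMAL-/- and 10.14 and 10.74 in BMAL+/+ for fat, and between 5.67 and 6.84 in BMAL-/- and 5.69 and 6.41 in BMAL+/+ for Schwann cells, and no gene of any list passed.

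**Figure D4:**
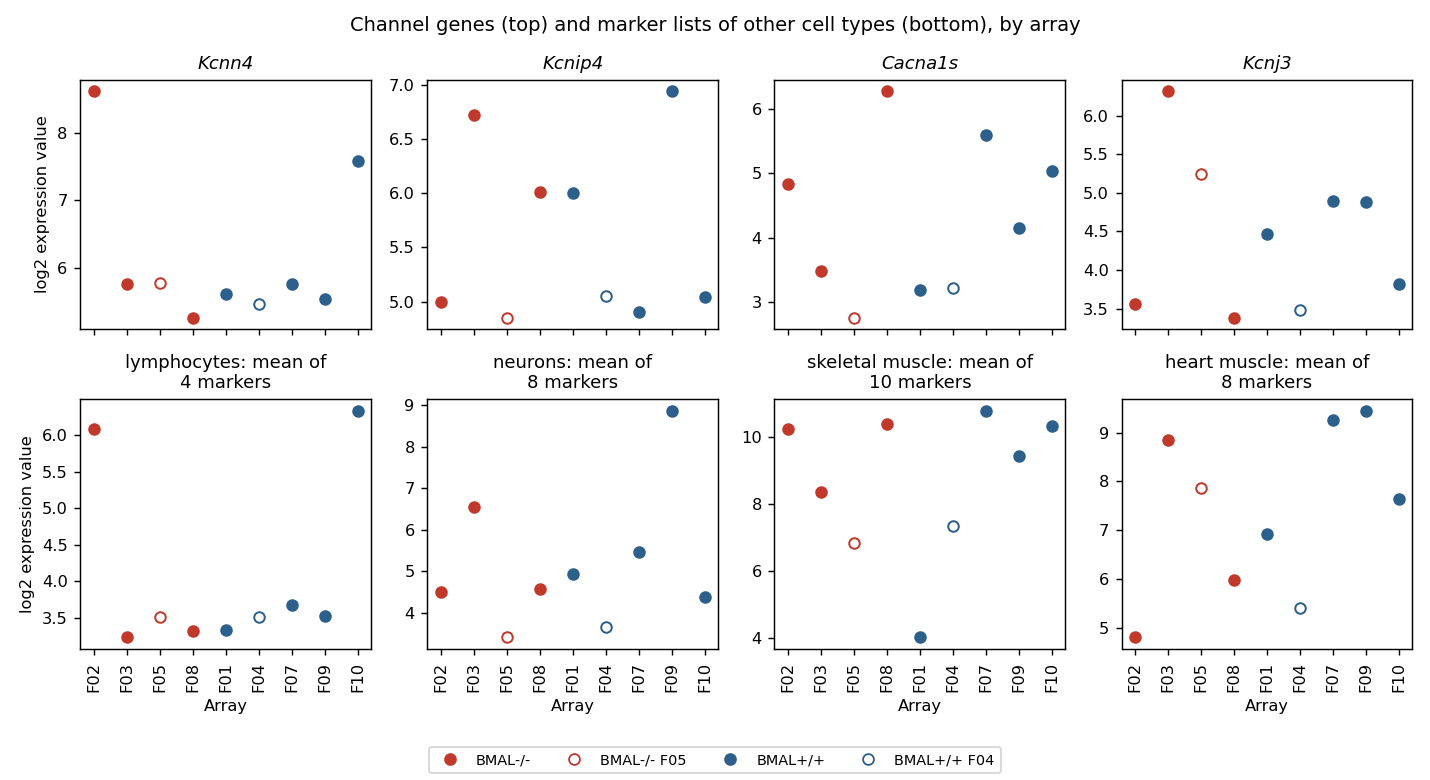
Deposited log2 expression values of Kcnn4, Kcnip4, Cacna1s and Kcnj3 on each array (top) above the mean of lymphocyte, neuron, skeletal muscle and heart muscle markers on the same arrays (bottom), with BMAL-/- arrays left of BMAL+/+ arrays, open points for F05 and F04, and a y axis of its own in each panel. Kcnn4 and the lymphocyte mean are both high on F02 and F10, and Kcnip4 and the neuron mean are both highest on F09 and F03.

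The remaining genes below 5 were mostly at the floor. Of the 87, 55 had a mean under 3 and 72 stayed under 4 on every array. At the threshold itself, Cacna1c (5.27) and Kcnd3 (5.15) were the last genes inside, and Kcns3 (4.96), a silent Kv subunit, and Kcna7 (4.91), a Kv1 pore, the first outside. At an unadjusted limma p under 0.05, 14 of the 87 (16.1%) were higher in BMAL-/- in 9 arrays, where 11.4% of all probe sets with a mean of 5 or less were, and 0 were lower, where 0.458% were. Their means lay between 1.89 and 3.15 and their differences between 0.02 and 0.12, each at an adjusted p of 0.37. In 7 arrays 28 (32.2%) were higher, where 26.4% of all such probe sets were, and 0 lower, where 1.21% were. Shifts of this size near the floor were shared by probe sets in general.

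By channel type, 7 of 31 voltage-gated potassium pores, 3 of 12 of their accessory subunits, 2 of 15 inward rectifiers, 2 of 12 two-pore-domain channels and 4 of 11 calcium- or sodium-activated channel genes had a mean above 5. Of the calcium channel genes, 1 of 9 pores, 1 of 4 alpha2delta, 0 of 3 beta and 0 of 8 gamma subunits did. The remaining 3 symbols are non-coding RNAs, of which Kcnq1ot1, the antisense transcript that silences neighbours of Kcnq1 on the paternal chromosome, read 7.09 to 7.47 in BMAL-/- and 7.17 to 7.49 in BMAL+/+. Of 29 listed genes known from arterial muscle or endothelium, 15 were above 5, 11 below and 3 not analysed here. Among those below were Kcnj2 (2.82), the Kir2.1 pore, Kcnn3 (2.71), the small-conductance channel of endothelium, Kcnq1 (2.71), and the T-type pores Cacna1g (2.17) and Cacna1h (2.67). A dim probe set does not show that a transcript is missing.

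Genes that act with these channels were read from a list of 46 symbols, of which 41 were measured and 29 had a mean above 5. None passed in limma in 9 or 7 arrays. At an unadjusted p under 0.05 there was none in 9 arrays, and in 7 arrays 2 were higher, Piezo1 (0.74), the stretch-activated cation channel, and Akap5 (0.79), a kinase anchor of the L-type channel, and 4 lower, beside 6.75% of the probe sets above 5 that were higher and 8.86% that were lower. The 4 were Pkd1 (-1.29), a large membrane protein of polycystic kidney disease, Atp2a3 (-1.02), a calcium pump of the endoplasmic reticulum, Abcc9 (-0.71) and Jph2 (-0.59), which ties the plasma membrane to calcium stores. Atp2a2, the main calcium pump of the stores, differed by -0.07 in 9 arrays, and Mylk, the kinase that starts contraction, by -0.02. Ryr1 and Atp2a1, the release channel and pump of skeletal muscle, varied from 2.29 to 8.01 and from 3.19 to 10.69. F01 was the lowest array for both, as it was for the mean of the skeletal muscle markers, though not for each marker.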

How the data were processed

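Aortic RNA was measured on 9 Affymetrix mouse arrays. Expression is on a log2 scale in the file the authors deposited, with 45101 probe sets. GCRMA and MAS5 are listed without role or version, per the submitters' processing notes. Other settings are not given in the sources used here. The values have a dense floor and no detection flags, and array medians lay between 3.13 and 3.24. They were used as deposited, without 64 control probe sets.

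In the platform annotation 34945 probe sets have 1 gene, 932 have several, and 9160 are unnamed here. All 222 member probe sets matched a RefSeq gene ID. Genotype was the single term of a model fitted across 45037 probe sets with limma 3.58.1 in R 4.3.3 (lmFit, eBayes with a trend, 1.76 prior degrees of freedom) for 9 arrays and without F04 and F05, which left 7. P-values measure the spread between these arrays, whose number limits the precision. The groups share no replicate number. Scripts were tested on simulated data. Among genes with a mean above 5, the rule for those described singly took those of a vessel tone list, the 8 with the highest mean, the 10 and 8 with the smallest p in 9 and 7 arrays, the 8 with the largest range, and 2 on each side of the level 5, and added Cacna1s, Cacng1, Kcnmb1, Kcnma1 and Cacna1c. Nearly flat or dim ones are given as a range or mean. Alternatives changed the normalization, variance model, array weights, filters, probe set summary, level threshold, the group of F01 and the arrays included. Members, lists and rules were chosen with earlier results of these data known.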

Additional observations from a re-analysis of the deposited data

Results flagged for a closer look

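Of 42 groups looked at, 4 held an array far from the rest of its group by Dixon's criterion, which chance alone gives in about 1 of 20 groups. Among BMAL-/- arrays Kcnn4 read 8.63 on F02 and 5.25 to 5.77 elsewhere. Among BMAL+/+ arrays it read 7.59 on F10 and 5.46 to 5.75 elsewhere. Both arrays were also the highest for lymphocyte markers, whose part was not tested. Kcnj11 read 6.85 on F08, against 6.81 on the other BMAL-/- arrays, and 6.78 on F01, against 6.81 on the other BMAL+/+ arrays. These last 2 gaps are at most 0.07 wide, because the other values were nearly equal.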

How the results depend on the processing

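In 9 arrays the count of the 21 genes past an adjusted p of 0.05 was 0 under every alternative run. The count at an unadjusted p under 0.05 was 2 with array weights and 0 to 1 without single arrays, the 1 being without F05. In 7 arrays the adjusted count was 2 with array weights and 0 to 2 without single arrays, the 2 being Kcnmb1 and Cacna2d1 in both cases. In these fits 34.3% (array weights) and 36.5% (without F08) of all probe sets passed, beside 9.52% of the 21 genes. The unadjusted count of 2 became 1 after quantile normalization, 4 with array weights, 0 in the F-test, 0 where probe sets of each gene were averaged (8 genes above 5), and 0 to 3 without single arrays. The median differences moved by less than the spread between arrays throughout. Alternatives were run for the differences of 10 member genes and not for those of Cacna1d or of genes outside the 108. Of the 10, 7 changed direction somewhere. Array weights gave 0.36 for Kcnma1, 0.02 for Kcnab1, 0.35 for Kcnj8, -0.22 for Kcnn4, 0.18 for Kcne4 and 0.54 for Kcnd3. That fit gives F05 a weight of 5.75 and F02 one of 0.291. With F01 in BMAL-/- the values were 0.06 for Kcnab1, 0.12 for Kcne4 and 0.33 for Kcnc4. Without single arrays Kcnj8 ranged from -0.35 to 0.05, Kcnn4 from -0.39 to 0.77 and Kcnc4 from -0.42 to 0.07. The cause was not tested. Kcnmb1, Cacna2d1 and Kcna5 kept a negative sign in all alternatives run, though Cacna2d1 was at -0.01 with array weights. Differences of probe sets near the floor are compressed.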

Other observations

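Over the 21 genes, F01 was among the 2 highest arrays for 10 and F05 for 7, while F02 was among the 2 lowest for 9 and F03 for 8. F05 and F01 carry different genotype labels. Cacna1d, another L-type pore, had the most positive difference of the 108 genes in 9 arrays and is named for that after its values were seen. The gene, with a mean of 4.62, read 4.99, 5.48, 4.65 and 4.52 on BMAL-/- F02, F03, F05 and F08, against 5.77, 4.67, 4.14, 3.41 and 3.99 on BMAL+/+ F01, F04, F07, F09 and F10, a difference of 0.52 in 9 arrays and 0.67 in 7 that did not pass. Kcna7, known from skeletal muscle, read 5.49, 4.87, 4.84 and 5.23 on BMAL-/- F02, F03, F05 and F08, against 4.66, 4.39, 5.06, 4.86 and 4.76 on BMAL+/+ F01, F04, F07, F09 and F10, with overlapping groups.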
